A study of Homo sapiens with 6 samples.

Results

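The alpha-arrestins examined were ARRDC1, ARRDC2, ARRDC3, ARRDC4 and TXNIP. They were taken by gene symbol, 1 array row per gene, and all 5 had a row among the 14779 genes measured. The family was picked because of how ARRDC3 and TXNIP stood between treated and vehicle cells in these arrays, so the differences of its members are given as a description, with no test. RNA came from BE(2)-C, an established clonal line of human neuroblastoma cells kept in serum-supplemented medium. In 3 samples the cells had received 10 µM NCT-503 for 2 days, and in 3 samples the vehicle DMSO for the same time. The compound inhibits phosphoglycerate dehydrogenase (PHGDH), which catalyses the opening step of serine synthesis. All samples are of 1 cell line at 1 dose and 1 time. Each sample was hybridised to 1 single-colour Affymetrix array, and values are on the deposited log2 scale.

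Alpha-arrestins are adaptor proteins with an arrestin fold and a tail that carries PPxY motifs, short proline-rich stretches bound by ubiquitin ligases of the NEDD4 family. By bringing such a ligase to a membrane protein they promote its ubiquitination and its removal from the cell surface. TXNIP is also known as an inhibitor of thioredoxin and of glucose uptake, and together with ARRDC4 it is a classic target of MondoA, a transcription factor that senses glucose phosphates with its partner MLX.

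The median of an array over all its rows was 4.32 to 4.33 with NCT-503 and 4.30 to 4.31 with DMSO. The 75th percentile was lower in every treated array, 6.034 to 6.085 with NCT-503 and 6.16 to 6.19 with DMSO. Precision is limited by there being 3 arrays per group. The labels call the samples independent but do not say whether each was its own culture, and the p-values therefore reflect only the scatter among these samples. The adrenergic neuroblastoma markers measured had mean log2 values of 8.63 to 8.76 per NCT-503 array and 8.73 to 8.83 per DMSO array. Yet 6 of these 7 markers were called, in both directions, where 33.5% of all genes were called in either direction. The granin CHGA (-1.23, adjusted p = 0.000116), HAND2 (-0.30) and ISL1 (-0.29) were lower, and PHOX2A (0.75, adjusted p = 0.000693), GATA3 (0.37) and the dopamine beta-hydroxylase gene DBH (0.37) were higher. The calls of HAND2, ISL1 and DBH were lost without several single arrays (adjusted p up to 0.128, 0.0742 and 0.0605): for HAND2 any but NCT-503 a, for ISL1 NCT-503 b or c or DMSO b or c, and for DBH NCT-503 a or b or DMSO a or c. Of 7 measured markers of other cell types, 1 was called higher and 1 lower, beside 16.4% and 17.1% of all genes. CD68, a lysosomal glycoprotein abundant in macrophages, was higher (2.25 ± 0.10, SE, adjusted p = 1.53e-05) and the matrix gene DCN was lower (-0.47 ± 0.09, adjusted p = 0.00687). The mean over these 7 was 5.50 to 5.54 per NCT-503 array and 5.21 to 5.25 per DMSO array, and no value was at 0. Without CD68, left out after its value was seen, the mean of the other 6 was 5.01 to 5.04 per NCT-503 array and 5.02 to 5.11 per DMSO array. The part of these markers in the results was not tested.

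ARRDC3 was the member that differed most. It is an adaptor studied for the ubiquitination of cell surface receptors and of integrin beta-4, and its loss protects mice from obesity. ARRDC3 had log2 values of 10.66, 10.73 and 10.76 in NCT-503 arrays a, b and c, against 8.19, 8.36 and 8.22 in DMSO arrays a, b and c. All 3 treated arrays lay far above all 3 vehicle arrays. The mean was 10.72 ± 0.05 with NCT-503 and 8.26 ± 0.09 with DMSO (SD, n = 3 each), a difference of 2.46 ± 0.08 (SE) on the log2 scale, or 5.51-fold. Its difference was the 10th largest upward among the 14779 genes, of which 20 were higher by at least 2 on the log2 scale, while the median absolute difference of all genes was 0.23. In bulk RNA of a culture, a difference in every cell and a change in the share of expressing cells cannot be told apart.

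ARRDC4 went the other way by a much smaller amount. This relative of TXNIP has also been tied to glucose transporter traffic. ARRDC4 had log2 values of 7.55, 7.72 and 7.68 in NCT-503 arrays, against 7.96, 8.08 and 8.02 in DMSO arrays, with every treated array below every vehicle array. The means were 7.65 ± 0.09 with NCT-503 and 8.02 ± 0.06 with DMSO (SD, n = 3 each), a difference of -0.37 ± 0.08 (SE).

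TXNIP lay lower with NCT-503 by less still. It had log2 values of 9.31, 9.26 and 9.19 in NCT-503 arrays, against 9.42, 9.54 and 9.44 in DMSO arrays. The groups did not overlap, but the highest treated array and the lowest vehicle array were only about as far apart as the replicates of either group. The means were 9.26 ± 0.06 with NCT-503 and 9.46 ± 0.06 with DMSO (SD, n = 3 each), which differ by -0.21 ± 0.08 (SE). Its size depended on the scaling: the difference was -0.14 after centring arrays on their 75th percentiles and -0.28 after quantile normalization.

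ARRDC1 and ARRDC2 had overlapping groups. ARRDC1 is the member that recruits the ESCRT machinery to the plasma membrane and drives the budding of small vesicles there, and its values were 4.996, 4.94 and 4.53 with NCT-503 and 4.55, 4.72 and 4.58 with DMSO. Array NCT-503 c was the lowest of all 6, and the difference of 0.20 ± 0.13 (SE) became 0.35 without it. ARRDC2, whose cargo is less well described, had values of 5.28, 5.16 and 4.998 with NCT-503 and 5.24, 4.87 and 4.78 with DMSO, a difference of 0.18 ± 0.14 (SE) with array DMSO a among the treated values.

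**Figure D1:**
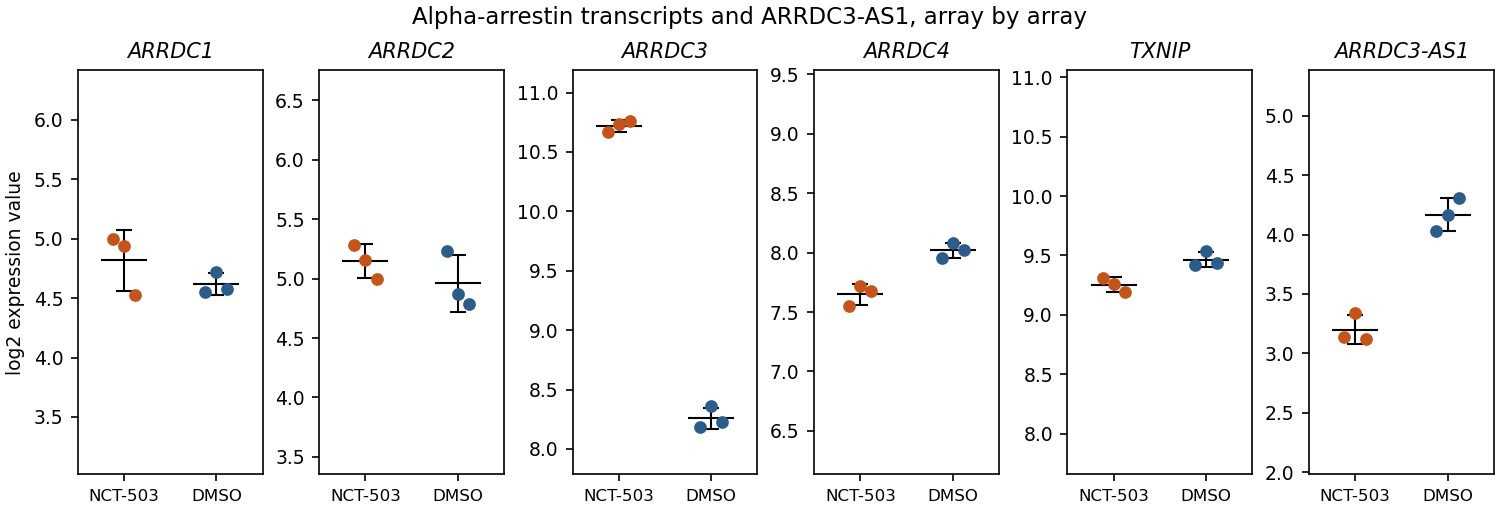
log2 expression values (y axis, each panel spanning the same number of log2 units) of the 5 alpha-arrestins and of ARRDC3-AS1 in NCT-503 arrays (left, orange) and DMSO arrays (right, blue). Points are arrays a, b and c from left to right, and the black line and bar are the mean ± SD (n = 3). ARRDC3 values are 10.66 to 10.76 with NCT-503 and 8.19 to 8.36 with DMSO, while ARRDC1 and ARRDC2 overlap between groups.

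In the fit across all genes, 1 of the 5 members passed an adjusted p under 0.05 as higher (ARRDC3), where 16.4% of all genes did, and 1 passed as lower (ARRDC4), where 17.1% did, which makes 2 of 5 in either direction beside 33.5% of all genes. The groups did not overlap for 3 of 5 members, against 47.9% of all genes. The median difference of the 5 members was 0.18 and that of all genes 0.06. Because this contrast chose the family, nothing is read from these counts. The only other alpha-arrestin of the human genome, ARRDC5, had overlapping groups (3.88 ± 0.27 with NCT-503 and 3.76 ± 0.23 with DMSO, SD, n = 3 each, adjusted p = 0.602). Of the classical arrestins only SAG, the rod photoreceptor arrestin, was analysed here, at 3.62 ± 0.14 with NCT-503 and 3.46 ± 0.21 with DMSO (SD, n = 3 each, adjusted p = 0.373). All values of ARRDC5 and SAG lay below the array medians, and in such dim rows a log2 difference can be understated.

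**Figure D2:**
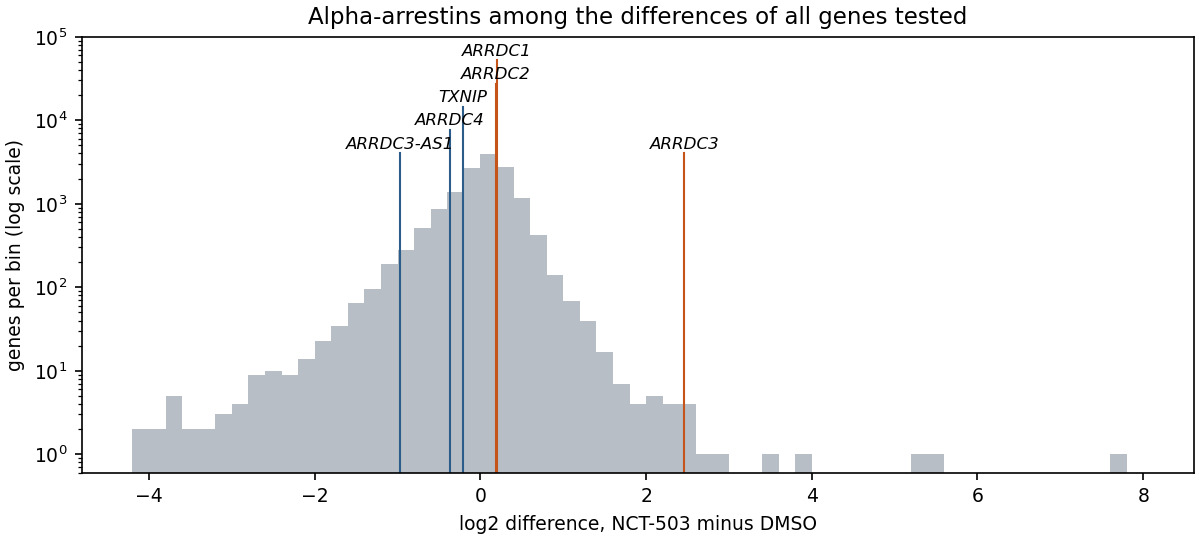
Number of genes (y axis, log scale) in bins of the log2 difference NCT-503 minus DMSO (x axis) for all 14779 genes, with a line at the difference of each alpha-arrestin and of ARRDC3-AS1 (orange above 0, blue below 0). ARRDC3 stands in the sparse right tail at 2.46, and the other 4 alpha-arrestins stand in the dense centre between -0.37 and 0.20.

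The direction of each member held with array weights, under 3 other scalings and with each of the 6 arrays left out. The filters, the remaining fits and the mean of rows leave a member's difference unchanged by design, so they could not turn it. The difference of ARRDC3 ranged from 2.41 to 2.53 and that of ARRDC4 from -0.41 to -0.30. TXNIP ranged from -0.28 to -0.14, ARRDC1 from 0.11 to 0.35 and ARRDC2 from 0.09 to 0.32.

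**Figure D3:**
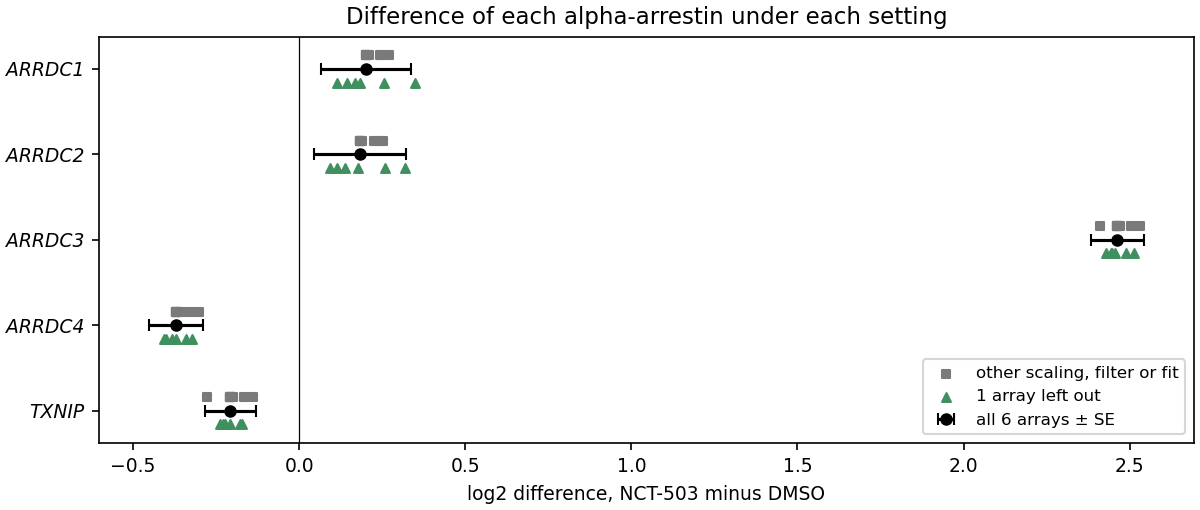
log2 difference NCT-503 minus DMSO (x axis) of each alpha-arrestin (rows). Black points are the fit on all 6 arrays ± SE, grey squares other scalings, filters or fits, and green triangles fits with 1 array left out. The spread over settings is 2.41 to 2.53 for ARRDC3, and for ARRDC1 it is 0.11 to 0.35, with the highest value without array NCT-503 c.

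The ARRDC3 locus also holds ARRDC3-AS1, a long noncoding RNA annotated on the opposite strand, whose span overlaps that of ARRDC3 on chromosome 5. ARRDC3-AS1 had log2 values of 3.13, 3.34 and 3.12 in NCT-503 arrays, against 4.03, 4.17 and 4.30 in DMSO arrays. Each treated array lay below each vehicle array, opposite to ARRDC3. It fell by 0.97 ± 0.10 on the log2 scale (SE, adjusted p = 0.000536). Its values with NCT-503 lie below the array medians, and in dim rows a log2 difference can be understated. The sources used here do not say whether the probes of the overlapping pair are separated by strand.

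Other neighbours of ARRDC3 did not pass the test. On either side the nearest named and tested genes were ADGRV1, an adhesion receptor gene (difference 0.08, adjusted p = 0.443), and the noncoding NR2F1-AS1 (-0.22, adjusted p = 0.146). Next to ARRDC4, IGF1R, the receptor of insulin-like growth factor, fell by 0.29 ± 0.08 (adjusted p = 0.0257), and LINC00923 did not pass (0.15, adjusted p = 0.366). The IGF1R call was lost with 4 of the 6 arrays left out in turn, NCT-503 b or c and DMSO a or b (adjusted p 0.0611 to 0.0870). Next to ARRDC1, EHMT1, a histone methyltransferase gene, fell by 0.48 ± 0.08 (adjusted p = 0.00349), and DPH7 did not pass (-0.14, adjusted p = 0.252). Beside TXNIP, POLR3GL, which encodes a subunit of RNA polymerase III, rose by 0.39 ± 0.12 (adjusted p = 0.0362), and HJV did not pass (0.07, adjusted p = 0.681). The POLR3GL call was lost with any array but NCT-503 c left out (adjusted p 0.0529 to 0.103). Both neighbours of ARRDC2, CCDC124 and MAST3, did not pass (0.23 and -0.02, adjusted p = 0.101 and 0.931).

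The windows around the annotated starts of the members, from 250 bases before to 50 bases from each start, were taken from RefSeq on GRCh38.p14 and searched on both strands. All 5 members had at least 1 window, 8 in all. The letters searched were GTAAACA, the core bound by FOXO factors, CACGTG, the E-box, CACGAG, a hexamer of carbohydrate response elements, TGATGNAA, an ATF4 and C/EBP type site, CCAAT and TATATA. No 2 of these motifs overlapped in the members' windows. The following 3 windows are shown because they hold the FOXO core, the E-box or the CACGAG hexamer, which are in capitals, on either strand, with all other bases in lower case. They are the downstream of the 2 ARRDC3 starts at chr5:91380048-91380347 on the minus strand, the upstream of the 2 TXNIP starts at chr1:145996530-145996829 on the minus strand, and the ARRDC4 start at chr15:97960453-97960752 on the plus strand.
ARRDC3, downstream start: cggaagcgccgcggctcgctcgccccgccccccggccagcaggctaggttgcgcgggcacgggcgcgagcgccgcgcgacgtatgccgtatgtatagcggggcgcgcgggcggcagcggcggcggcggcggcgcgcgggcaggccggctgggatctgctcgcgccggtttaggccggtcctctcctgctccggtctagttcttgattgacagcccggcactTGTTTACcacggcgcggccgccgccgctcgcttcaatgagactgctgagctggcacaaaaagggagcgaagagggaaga
TXNIP, upstream start: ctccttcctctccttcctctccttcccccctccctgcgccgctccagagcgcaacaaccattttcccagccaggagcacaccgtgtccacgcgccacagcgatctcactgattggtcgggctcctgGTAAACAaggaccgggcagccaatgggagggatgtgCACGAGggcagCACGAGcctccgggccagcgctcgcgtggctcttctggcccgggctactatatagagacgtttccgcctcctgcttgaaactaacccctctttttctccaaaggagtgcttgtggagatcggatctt
ARRDC4: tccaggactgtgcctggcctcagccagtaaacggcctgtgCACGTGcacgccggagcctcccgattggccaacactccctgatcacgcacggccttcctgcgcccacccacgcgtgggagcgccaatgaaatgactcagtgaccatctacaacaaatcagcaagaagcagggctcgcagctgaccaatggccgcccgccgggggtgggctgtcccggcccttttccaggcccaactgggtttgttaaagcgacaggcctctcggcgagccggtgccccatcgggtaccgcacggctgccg

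TXNIP had a FOXO core that begins 124 bases before the start, followed by a pair of CACGAG hexamers 5 bases apart, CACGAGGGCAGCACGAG, that begins 88 bases before the start. ARRDC3 had the FOXO core on the opposite strand, 29 bases before its downstream start, and no E-box or CACGAG hexamer in either window. That ARRDC3 window shares 251 bases with the window of ARRDC3-AS1, so the same FOXO core lies 227 bases before the start of ARRDC3-AS1. ARRDC4 had an E-box that begins 210 bases before its start. No ATF4 and C/EBP type letters occurred in any of the 8 windows, and ARRDC1 and ARRDC2 had only CCAAT boxes, 1 each. Of all 35116 windows in the table, 3.42% held the FOXO core, 7.26% the E-box, 6.78% the CACGAG hexamer and 3.62% the TGATGNAA site. CCAAT occurred in 34.61% and TATATA, which TXNIP has 29 bases before its start, in 3.99%. A pair of E-box or CACGAG hexamers 5 bases apart occurred in 4 windows (0.011%), among them that of TXNIP. A match is a run of letters, and binding was not measured here.

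**Figure D4:**
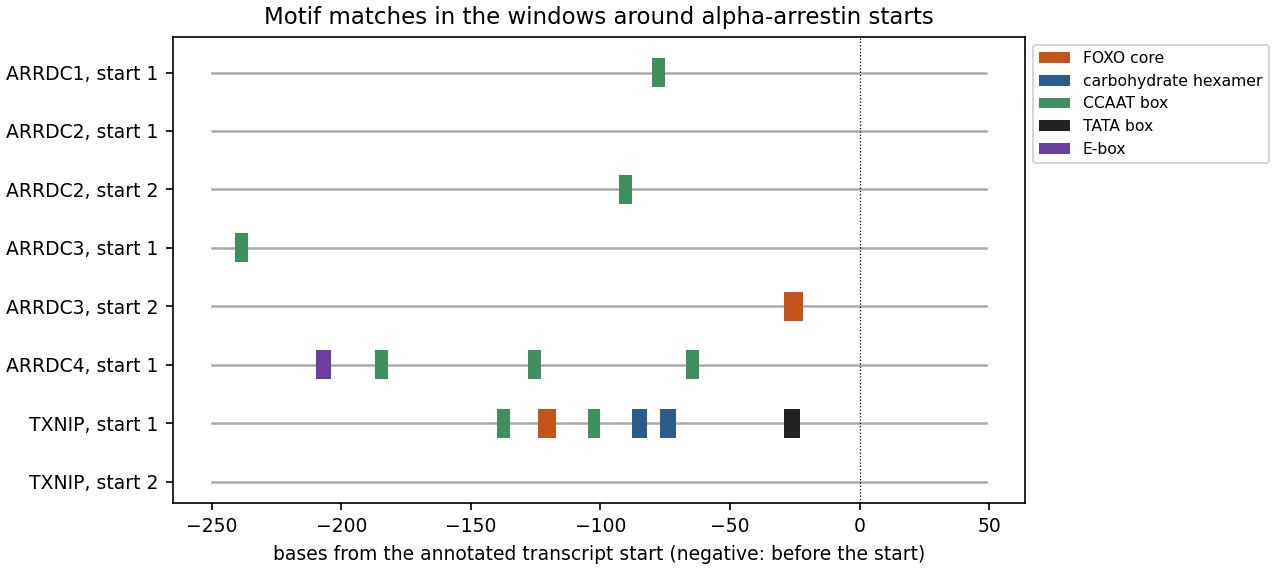
Motif matches on either strand (coloured boxes) in the 8 windows around annotated starts of the 5 alpha-arrestins (rows), by distance from the start in bases (x axis, dotted line at the start). The FOXO core occurs 124 bases before the upstream TXNIP start and 29 bases before the downstream ARRDC3 start. The pair of carbohydrate hexamers occurs in the TXNIP window, the E-box in that of ARRDC4, and the ATF4 and C/EBP type letters in none.

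Genes that work with alpha-arrestins were then examined, and these were tested. The count of each list stands beside 16.4% of all genes called higher, 17.1% called lower and 33.5% called in either direction. The ligases that bind PPxY motifs went down where they passed, and the adaptors that activate these ligases went up. SMURF1, a ligase of the BMP and TGF-beta pathways, fell most, with 5.59 ± 0.08 under NCT-503 and 6.59 ± 0.02 under DMSO (SD, n = 3 each), a difference of -0.999 ± 0.08 (SE, adjusted p = 0.000142). ITCH, a ligase that ARRDC proteins recruit to membrane cargo, fell by 0.34 ± 0.08 (adjusted p = 0.0115), and WWP1 by 0.23 ± 0.07 (adjusted p = 0.0480). The PPxY-bearing adaptors NDFIP2 and NDFIP1 rose by 0.31 ± 0.07 and 0.25 ± 0.07 (adjusted p = 0.0149 and 0.0315). WWP2 (0.10) and SMURF2 (0.11) did not pass, and NEDD4 and NEDD4L were not analysed here. In all, 2 of 7 measured genes were called higher and 3 lower. WWP1 and NDFIP1 lost their calls without any 1 of the 6 arrays (adjusted p 0.0565 to 0.135 and 0.0559 to 0.106), and NDFIP2 without DMSO c (0.0570). The number of calls was 2 without DMSO c and 3 without any 1 of the other arrays.

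Among cargo genes of the arrestins, 1 was called higher and 0 lower, beside 16.4% and 17.1% of all genes. Of 6 measured, only ADRB3, a beta-adrenergic receptor, was called, with values of 4.91, 4.53 and 4.82 under NCT-503 and 4.35, 4.33 and 4.31 under DMSO (difference 0.42 ± 0.11, adjusted p = 0.0236). This call was lost without any 1 array other than NCT-503 b (adjusted p 0.0599 to 0.0687), which left 0 called genes in the list. No cargo gene was called lower by limma, and the count was 0 at an unadjusted p under 0.05 as well. The DMSO means of ADRB1 (4.38), ADRB3 (4.33), AVPR2 (4.22) and NOTCH1 (4.45) lay near the array medians, while INSR and EGFR lay higher. In such dim rows a fall can be understated, so the lack of falls is not read as a result about cargo. The receptors ADRB1 (0.20), INSR (-0.09), NOTCH1 (0.30), EGFR (0.13) and AVPR2 (0.11) did not pass. ITGB4 and the glucose transporters SLC2A1 and SLC2A3 were not analysed here.

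Among genes of the ESCRT machinery, parts of which ARRDC1 borrows to bud vesicles, 5 of 12 measured were called higher and 1 lower. The median difference of the 12 was 0.25, against 0.06 for all genes. The rises included 3 subunits of ESCRT-I: VPS28 by 0.58 ± 0.10 (adjusted p = 0.00330), VPS37A by 0.46 ± 0.09 (adjusted p = 0.00564) and TSG101, the direct partner of ARRDC1, by 0.44 ± 0.08 (adjusted p = 0.00473). TSG101 had 7.33, 7.24 and 7.39 with NCT-503 and 6.94, 6.83 and 6.87 with DMSO. HGS, an ESCRT-0 subunit, rose by 0.46 ± 0.13 (adjusted p = 0.0311) and CHMP4B, a filament subunit of ESCRT-III, by 0.29 ± 0.07 (adjusted p = 0.0206). VPS4B, the ATPase that takes ESCRT-III filaments apart, fell by 0.58 ± 0.11 (adjusted p = 0.00677), while its paralog VPS4A did not pass (0.21, adjusted p = 0.150). HGS lost its call without any 1 array but NCT-503 c (adjusted p 0.0598 to 0.0941), and CHMP4B without NCT-503 a or c or DMSO a or c (0.0502 to 0.0706).

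Of MLX, MLXIP and MLXIPL, which encode the glucose-sensing factors that control TXNIP and ARRDC4, MLX alone passed the test. MLX, the obligate partner of MondoA, rose by 0.45 ± 0.09 (adjusted p = 0.00977), with 8.88, 8.74 and 8.62 under NCT-503 and 8.21, 8.37 and 8.33 under DMSO. MLXIP, which encodes MondoA itself, had 6.36, 6.52 and 6.34 under NCT-503 and 6.67, 6.64 and 6.57 under DMSO, and its difference of -0.22 ± 0.08 did not pass (adjusted p = 0.0780). MLXIPL, which encodes the related ChREBP, differed by 0.04 (adjusted p = 0.822), with all values below the array medians. Other genes of the network, which pairs through MLX or MAX, moved in both directions. MXD1 rose 2.11-fold (1.08 ± 0.12, adjusted p = 0.000536), MXI1 rose by 0.57 ± 0.09 (adjusted p = 0.00244) and MNT by 0.39 ± 0.09 (adjusted p = 0.0140). MAX fell by 0.50 ± 0.09 (adjusted p = 0.00525), MXD4 by 0.45 ± 0.12 (adjusted p = 0.0255) and MGA by 0.40 ± 0.07 (adjusted p = 0.00370). Thus 4 of 11 measured genes were called higher and 3 lower. MYCN was not analysed here, and MYC, with all values below the array medians, did not pass (0.24, adjusted p = 0.364). MNT lost its call without DMSO a (adjusted p = 0.0519), and MXD4 without DMSO a or DMSO c (0.0837 and 0.0704).

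Further genes that MondoA or ChREBP drive in other tissues also divided, with 2 of 11 called higher and 4 lower. HBP1, a repressor of cell cycle genes, rose 2.49-fold (1.31 ± 0.11, adjusted p = 0.000201) and the Krüppel-like factor KLF10 rose by 0.56 ± 0.08 (adjusted p = 0.00233). RGS16, a brake on G protein signalling, fell by 0.71 ± 0.08 (adjusted p = 0.000528). The lipid synthesis enzymes ACACB and FASN fell by 0.65 ± 0.08 and 0.52 ± 0.09 (adjusted p = 0.000730 and 0.00440), and KHK, ketohexokinase, by 0.48 ± 0.11 (adjusted p = 0.0140, and 0.0547 without moderation of the variances). The median of the list was -0.13.

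The thioredoxin system, the partner of TXNIP in redox control, had 6 of 20 measured genes called, beside 33.5% of all genes. TXN, the thioredoxin that TXNIP binds, had 10.74, 10.70 and 10.67 with NCT-503 and 10.59, 10.63 and 10.51 with DMSO, and its difference of 0.13 ± 0.07 did not pass (adjusted p = 0.234). The cytosolic reductase TXNRD1 differed by -0.09 (adjusted p = 0.453). Of 20 measured genes, 4 were called higher and 2 lower, with a median of 0.04 against 0.06 for all genes. PRDX6, a peroxiredoxin that uses glutathione, rose by 0.53 ± 0.08 (adjusted p = 0.00197), TXNL1 by 0.48 ± 0.08 (adjusted p = 0.00356), NXN by 0.39 ± 0.10 and mitochondrial TXN2 by 0.37 ± 0.10. The thioredoxin-dependent peroxiredoxins PRDX1 and PRDX3 fell by 0.36 ± 0.10 and 0.35 ± 0.09 (adjusted p = 0.0248 and 0.0181), and PRDX2 and PRDX4 of the same class did not pass (0.03 and 0.05, adjusted p = 0.766 and 0.641). The number of calls was between 2 and 5 with 1 array left out, and was lowest without NCT-503 b or DMSO c, since NXN, TXN2, PRDX1 and PRDX3 each lost their calls without 4 of the 6 arrays (adjusted p 0.0515 to 0.0768).

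FOXO factors, which are active when insulin and growth factor signalling is low, and their known targets had 4 of 15 measured genes called higher and 2 lower, with a median of 0.14. IRS2, an insulin receptor adaptor, rose 2.85-fold, with 7.20, 7.18 and 7.23 under NCT-503 and 5.79, 5.71 and 5.59 under DMSO (1.51 ± 0.08, adjusted p = 4.44e-05). CCNG2, a cyclin of cells that leave the cycle, rose 2.22-fold (1.15 ± 0.11, adjusted p = 0.000307), FBXO32, a ubiquitin ligase subunit of muscle wasting, rose by 0.83 ± 0.15 (adjusted p = 0.00536) and FOXO4 by 0.36 ± 0.07 (adjusted p = 0.00934). SESN3, a sestrin that restrains mTORC1, fell by 0.73 ± 0.09 (adjusted p = 0.00115), and KLF6 by 0.44 ± 0.08 (adjusted p = 0.00539). FOXO1 (0.26) and FOXO3 (-0.16) did not pass.

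Genes of the glucocorticoid and cyclic AMP responses had 4 of 9 measured members called higher and none lower, with a median of 0.31. KLF9 rose 2.08-fold (1.06 ± 0.09, adjusted p = 0.000230), the kinase gene SIK1 rose by 0.76 ± 0.08 (adjusted p = 0.000435), SGK1 by 0.41 ± 0.10 (adjusted p = 0.0156) and the clock gene PER1 by 0.31 ± 0.07 (adjusted p = 0.0122). FKBP5, a standard marker of the glucocorticoid receptor, did not pass (-0.10, adjusted p = 0.401). At an unadjusted limma p under 0.05, 1 member was lower, CREB1, the cyclic AMP response factor (-0.22, adjusted p = 0.110). SGK1 lost its call without DMSO c (adjusted p = 0.0560).

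**Figure D5:**
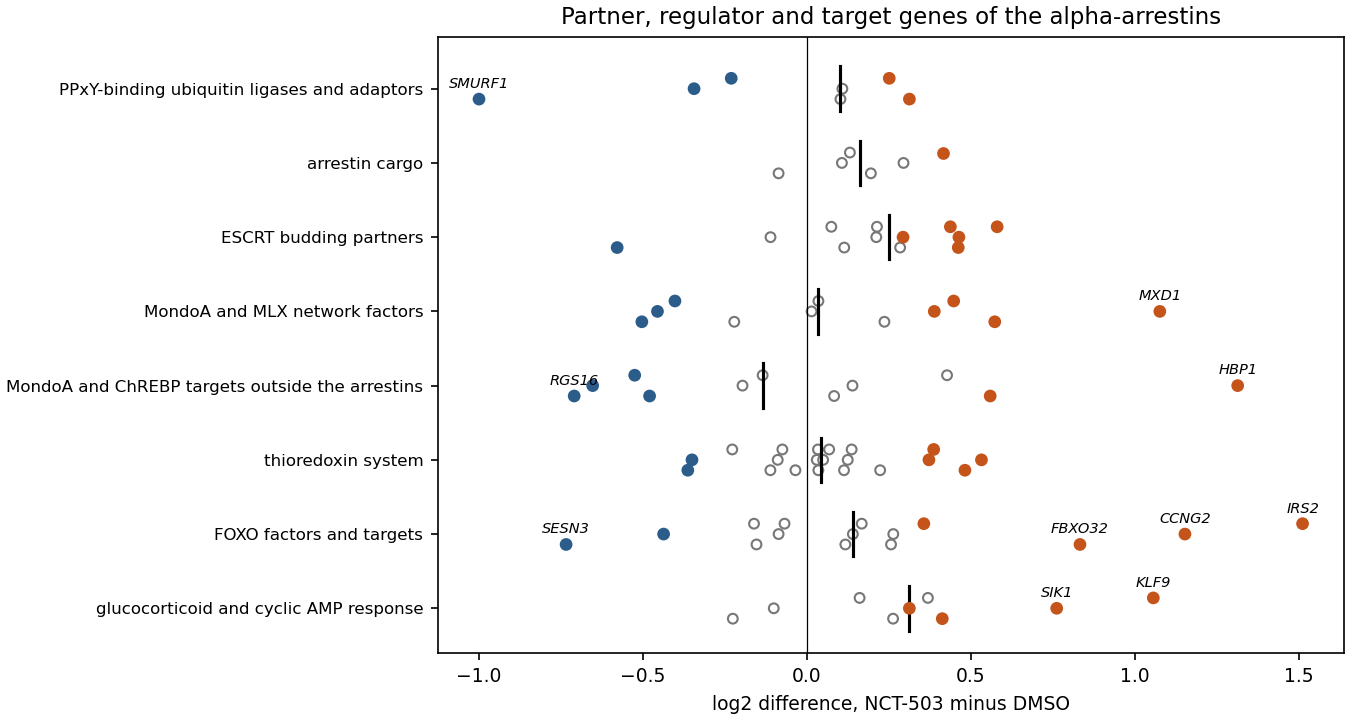
log2 difference NCT-503 minus DMSO (x axis) of each measured gene in 8 lists of alpha-arrestin partners, regulators and targets (rows). Filled points passed an adjusted p under 0.05 (orange higher, blue lower), open points did not, and the black bar is the median of a list. Rises reach 1.51 for IRS2, and SMURF1 has the largest fall, -0.999.

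Among 11736 other named protein genes, the 5 whose profile over the 6 arrays was most like that of ARRDC3, by Euclidean distance after centring each gene on its DMSO mean, were CREBRF, ATF5, ASNS, CD68 and MT2A. They were chosen by this contrast, so their differences are a description. CREBRF, a regulator of CREB3 factors, was closest (distance 0.17, Pearson r 0.999) with 6.54, 6.54 and 6.58 under NCT-503 and 4.14, 4.14 and 4.15 under DMSO. Its DMSO values lie below the array medians, so its difference can be understated, and its closeness to ARRDC3 may depend on that. ATF5, a stress-response transcription factor, and ASNS, asparagine synthetase, lay at distances of 0.27 and 0.31. CD68 followed at 0.43 and MT2A, a metallothionein, at 0.72. With 2 groups of 3 arrays, r mostly reflects the shared split between the groups.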

How the data were processed

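The deposited values are log2 expression values made by the authors with Partek, per the submitters' processing notes. Neither its version nor the background correction, summarisation or normalization is given in the sources used here. The log2 unit was read from the range, 0.578 to 13.6. No scanner values were used, so signal could not be set against background. Of 31135 rows, 15098 had a single gene symbol and were kept, each found by Entrez identifier in the GRCh38.p14 table. Rows with no symbol or with several were left out. The row of highest mean stood for a gene, which left 14779 genes, and each alpha-arrestin had 1 row.

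Testing used limma 3.58.1 (R 4.3.3; lmFit, eBayes without trend, both groups in 1 fit), two-sided. P-values were adjusted by the Benjamini-Hochberg method over the 14779 genes, and an adjusted p under 0.05 was called. In simulated data with 200 changed genes the fit recovered 28.8%, 80.8% and 98.4% of log2 changes of 0.5, 1 and 2, and 11 of 149 calls were false. Far fewer genes changed there than the 4953 called in the data, so these shares do not carry over to the real fit.

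The members and lists were chosen with earlier results of these data known, and the motifs after the sequences were seen. Named genes are the members, their nearest tested neighbours, up to 4 called genes per list by size, MLXIP, MLX, TXN, NEDD4, NEDD4L, ITCH and WWP1, and the 5 profiles most like a member that differed by at least 1. Names beyond this rule were added after their values were seen, to complete small counts and to give genes that did not pass. Of 7 listed AMPK subunits none was analysed here, and 1 further gene of the rule is not reported here. Alternatives were other moderation, array weights, a replicate block, 3 scalings, 2 filters, the mean of a gene's rows, leaving out each array and a stricter threshold.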

Additional observations from a re-analysis of the deposited data

How the results depend on the processing

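Of 265 values recomputed under another setting, 238 stayed within the spread or within 1.5 times the count, 27 moved and 0 turned sign. Most of these values are counts, which cannot turn sign. Several settings also leave a member's difference unchanged by design, so these totals are not read as support. TXNIP differed by -0.14 with arrays centred on the 75th percentile and by -0.28 after quantile normalization. That centring also made 60.4% of all calls higher (3345 higher, 2189 lower), against 48.8% as deposited. With the threshold at 0.01, calls over all genes were 1226 higher and 1682 lower, and numbered 1 among ligases and adaptors, 0 among cargo, 2 in the thioredoxin system and 2 in the glucocorticoid and cyclic AMP list. Cargo had 2 called genes with trended, robust eBayes and 0 above the 50th percentile of mean level, and the thioredoxin system had 3 with no moderation. With 1 array left out, calls ranged from 2 to 3 for ligases and adaptors, 0 to 1 for cargo and 2 to 5 for the thioredoxin system. Apart from fewer genes or arrays where the setting leaves them out, the cause was not tested.

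Arrays of both groups carry the letters a, b and c. Deviations from the group means correlated by 0.004, 0.003 and 0.037 for same-letter arrays. Those of unlike letters correlated by -0.033 to 0.028, so the highest value was that of the c pair. All lie near 0 and cannot settle whether the letters mark pairs. No pairing was assumed in the main fit. With the letter as a replicate block, 2108 genes were higher and 2327 lower, and ligases and adaptors had 3 called genes. ARRDC3 and ARRDC4 passed the threshold in 16 of 16 other fits, TXNIP in 4 of 16, ARRDC1 in 1 of 15 and ARRDC2 in 0 of 16. These fits reuse the contrast that chose the family, so nothing is read from these counts. ARRDC1 could not be fitted above the 50th percentile of mean level. Without scanner values, folds of dim rows such as ARRDC3-AS1 may be understated.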
